A study of Rattus norvegicus with 9 samples.

Results

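Pinealocytes, which make and release melatonin, are the main cell type of the pineal gland, and in the adult rat they express Bsx, which encodes a homeodomain transcription factor (brain-specific homeobox). The comparison described here set cultured rat pinealocytes treated with a short interfering RNA (siRNA) against Bsx (siBsx, 3 libraries) beside the same cells treated with a non-targeting siRNA (siNT, 3 libraries), and it asks which transcripts of the differentiated pinealocyte depend on Bsx. It covers every gene of the authors' comparison, 26854 genes, which is also the number of genes in the whole series, and 14876 of them had an adjusted p. A further group of 3 libraries with an siRNA against Lhx4 brings the series to 9 libraries. Pinealocytes came from adult Sprague-Dawley rats, were dissociated with papain, grown in serum-containing medium and transfected with Stealth siRNA at 40 nM. Fresh medium was given at 24 h, and cells were collected on day 3.

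Several limits hold for every value below. One siRNA sequence was used per target, so an effect of losing Bsx and an effect of that siRNA on other transcripts cannot be told apart. The labels describe triplicates but do not say whether these were separate cultures or animals, and p-values therefore measure only the spread between these samples. Primary pineal cultures hold other cells of the gland as well, and in bulk RNA fewer cells of a type and less RNA per cell cannot be told apart. Group means are given as DESeq2-normalised counts (reads divided by a size factor per library), computed from the mean over 6 libraries and the fold change in the authors' deposited table. Normalised counts are not divided by transcript length, so they are compared between groups and not between genes. Values per siBsx library were not used here, so the error of each difference is the standard error (SE) of the log2 fold change. "Rose" and "fell" refer to an adjusted p under 0.05 (DESeq2 Wald test with Benjamini-Hochberg adjustment over all tested genes, run by the authors).

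Homeodomain factors bind short AT-rich DNA motifs and either activate or repress nearby genes. Bsx is known from mouse genetics for its role in hypothalamic neurons that control feeding and in the development of the pineal gland, and it is expressed in the pineal gland at all ages. The target itself was reduced. Bsx averaged 2447 in siBsx cells and 11837 in siNT cells (20.7% of siNT), a log2 fold change of -2.27 ± 0.06 in the authors' deposited table (adjusted p = 5.25e-294).

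Across the transcriptome the knockdown was followed by many small changes. Of 14876 tested genes, 2558 (17.2%) passed, with 1129 higher (7.59%) and 1429 lower (9.61%) in siBsx cells than in siNT cells. The median size of a called change was 0.36 on the log2 scale (1.28-fold), and 2003 calls (78.3%) were under 1.5-fold. At least a 2-fold difference was seen for 70 genes that rose and 84 that fell. The share of genes called depended on their level, with 2.28% of genes with a mean under 50 normalised counts called and 37% of those with a mean of 5000 or more. The 98 gene lists used below name 3701 genes of the table, of which 2649 had an adjusted p (tested members), while the rest had none. Counts for the gene families are therefore set beside the 17.2% of all tested genes and beside the share called among all tested genes of the same mean classes (under 50, 50 to 200, 200 to 1000, 1000 to 5000, and 5000 or more). The 6 highest entries of the table held 41.7% of the summed mean, and their log2 fold changes lay between 0.05 and 0.07.

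**Figure D1:**
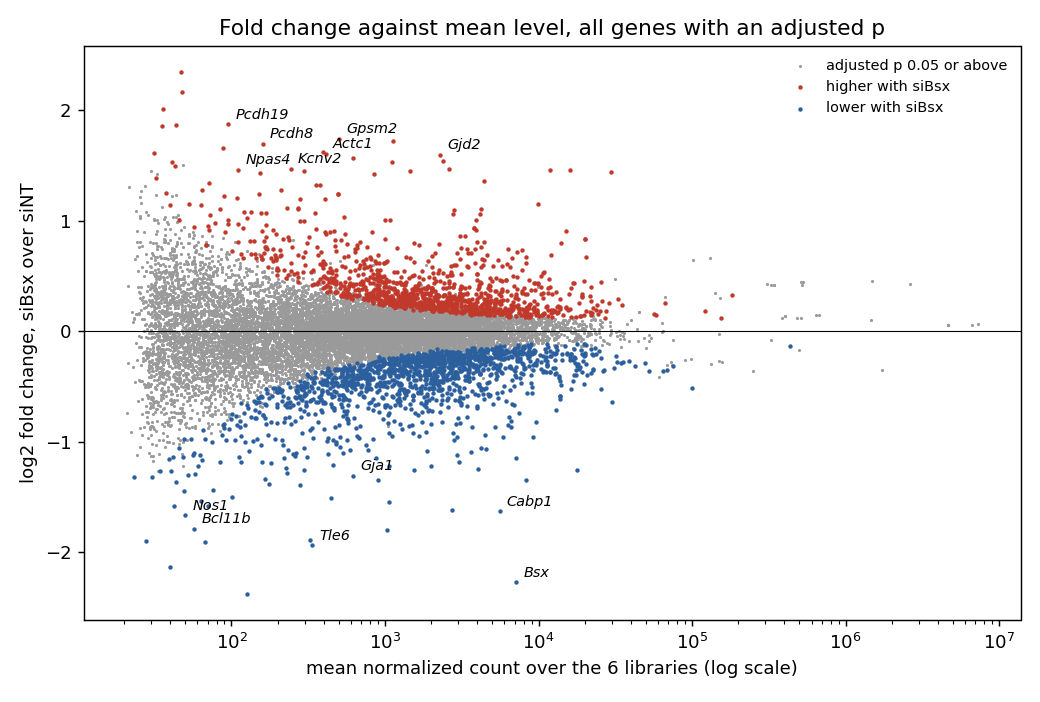
Log2 fold change (siBsx over siNT, vertical) against mean normalised count over the 6 libraries (horizontal, log scale) for the 14876 tested genes, 1 point per gene. Red points are the 1129 genes higher and blue points the 1429 genes lower in siBsx cells at an adjusted p under 0.05, grey points did not pass, and Bsx lies at -2.27.

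Among genes with a gene symbol and a mean of at least 50 normalised counts, the 3 largest rises were those of Pcdh19, Gpsm2 and Apbb1. Pcdh19, a protocadherin, averaged 149.8 normalised counts in siBsx cells and 40.8 in siNT cells. Gpsm2, a G protein modulator that also orients the mitotic spindle, averaged 777 normalised counts in siBsx cells and 232 in siNT cells, and Apbb1, an adaptor (FE65) that binds the amyloid precursor protein, averaged 1730.0 normalised counts in siBsx cells and 523 in siNT cells. Pcdh19, Gpsm2 and Apbb1 had log2 fold changes of 1.88 ± 0.27, 1.74 ± 0.17 and 1.72 ± 0.09 in the authors' deposited table. Further genes among the 25 highest with a mean of at least 50 were Magel2, an imprinted MAGE family gene (134 normalised counts in siBsx cells and 42.4 in siNT cells), Tcn2, which encodes the vitamin B12 carrier transcobalamin (17529 normalised counts in siBsx cells and 6388 in siNT cells), and Vat1l (3563 normalised counts in siBsx cells and 1226 in siNT cells), whose role is not described here. Tmem158, Cxcl14 (a chemokine), Gas2l3, Pax4, Plekhg1 and Mn1 were also among them. The whole set of 25 spanned log2 fold changes of 1.24 to 1.88 in the authors' deposited table.

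With the same limits on symbol and mean, the largest falls were those of Fam19a3, Bsx itself, Tle6, Tpsg1 and Igsf9. Fam19a3 (Tafa3), a secreted chemokine-like protein, averaged 40.4 normalised counts in siBsx cells and 210.5 in siNT cells and was the only gene in this set with a larger fold change than Bsx, at -2.38 ± 0.26 (log2) in the authors' deposited table. Tle6, a Groucho-family corepressor, averaged 138 normalised counts in siBsx cells and 531 in siNT cells. Igsf9, an immunoglobulin-type synaptic adhesion protein, averaged 139 normalised counts in siBsx cells and 514 in siNT cells. Tle6 and Igsf9 had log2 fold changes of -1.94 ± 0.16 and -1.89 ± 0.16 in the authors' deposited table. Cabp1, a calmodulin-like calcium sensor, was the lower gene with the smallest p after Bsx and Gnb3 (adjusted p = 1.24e-130 in the authors' deposited table), at 2722 in siBsx cells and 8423 in siNT cells. The set of 25 also held Bcap29 and Ssr2, both of the endoplasmic reticulum, Dazap2, Nxt2, Btnl8, Cd70, Tpsg1, Hhla1, Hs3st6, Nradd and Mamstr, with log2 fold changes of -1.29 to -1.91 in the authors' deposited table. The assignment of reads that match several gene copies is not given in the sources used here. Genes with near-identical copies (the actins, the tubulins, the calmodulins, the protocadherin clusters, Ssr2, Dazap2, Btnl8 and the class I RT1 genes among those named) therefore have uncertain values, and so do genes that overlap another gene, since the strand setting is not given either.

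Bsx binds as a homeodomain protein, and the promoters of genes at both ends of the range are shown so that the sequence around their starts can be read beside these values. RefSeq promoters (build GRCr8, 250 bases before to 50 after the first listed start) matched 20 of the 25 largest rises and 18 of the 25 largest falls. The core TAAT, on either strand, was found in 11 of those 20 rises and in 6 of those 18 falls, against 41.8% of the 9724 tested genes with a promoter and 59.7% of all 27457 promoters. TAATTA, which contains TAAT, was in none of these windows, in 1.98% of the tested genes with a promoter and in 5.35% of all promoters. A match is a string of letters and no evidence of binding, and a window without one says only that the letters are not in it. Pcdh8 (chr15:61612041-61612340, minus strand) and Gjd2 (chr3:121229318-121229617, minus strand) rose, and Tle6 (chr7:8757596-8757895, plus strand) fell. Each of these windows holds TAAT, which most of the falls with a promoter lacked. Capitals mark TAAT or its reverse complement ATTA, and each sequence runs 5′ to 3′ on the gene's strand.
Pcdh8: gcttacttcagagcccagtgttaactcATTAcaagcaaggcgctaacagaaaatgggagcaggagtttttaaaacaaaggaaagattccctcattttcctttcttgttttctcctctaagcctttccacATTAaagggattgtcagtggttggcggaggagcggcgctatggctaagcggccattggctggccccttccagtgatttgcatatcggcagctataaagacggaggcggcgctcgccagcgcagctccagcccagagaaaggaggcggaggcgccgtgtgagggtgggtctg
Gjd2: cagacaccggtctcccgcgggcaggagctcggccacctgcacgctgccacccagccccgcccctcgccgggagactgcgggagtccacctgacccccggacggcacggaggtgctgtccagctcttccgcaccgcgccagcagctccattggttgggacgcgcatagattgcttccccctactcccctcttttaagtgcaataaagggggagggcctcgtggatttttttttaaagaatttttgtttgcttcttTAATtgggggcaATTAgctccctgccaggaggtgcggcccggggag
Tle6: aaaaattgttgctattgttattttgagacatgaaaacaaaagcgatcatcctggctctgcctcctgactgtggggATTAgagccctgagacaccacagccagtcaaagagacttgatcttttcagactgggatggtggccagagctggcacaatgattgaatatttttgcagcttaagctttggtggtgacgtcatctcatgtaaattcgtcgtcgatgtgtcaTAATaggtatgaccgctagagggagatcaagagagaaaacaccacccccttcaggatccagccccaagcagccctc

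Cell adhesion genes moved in both directions. Protocadherins are cadherin-type adhesion proteins, encoded singly (the non-clustered group) or in tandem clusters whose products give neurons a surface identity. Among the non-clustered protocadherins, 6 of 10 tested members rose and 1 fell (70% called, 10.6% in the same mean classes, median log2 fold change 0.97). Pcdh19, Pcdh8 and Pcdh17 rose with the siRNA against Lhx4 as well, with values given further below. Pcdh8 averaged 244 normalised counts in siBsx cells and 75.5 in siNT cells, and Pcdh17 averaged 921 normalised counts in siBsx cells and 311 in siNT cells. Pcdh10 averaged 229 normalised counts in siBsx cells and 109 in siNT cells, and Pcdh15, which forms tip links in sensory hair cells, averaged 724 normalised counts in siBsx cells and 353 in siNT cells. The 5 members Pcdh8, Pcdh17, Pcdh10, Pcdh15 and Pcdh9 had log2 fold changes of 1.70 ± 0.24, 1.57 ± 0.13, 1.07 ± 0.22, 1.04 ± 0.15 and 0.91 ± 0.22 in the authors' deposited table. Pcdh1 was the member that fell, at 3441 in siBsx cells and 4792 in siNT cells, and Pcdh7, Pcdh12 and Pcdh18 did not pass (log2 fold changes 0.28 ± 0.14, 0.86 ± 0.33 and 0.19 ± 0.20 in the authors' deposited table). In the clustered group, none of 29 tested members passed the authors' DESeq2 test, and 2 had an unadjusted p under 0.05. Its 2 highest members, Pcdhac1 (3049 normalised counts in siBsx cells and 3449.9 in siNT cells) and Pcdhgc3 (2664 normalised counts in siBsx cells and 2873 in siNT cells), are near-identical to other members over part of their length.

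In the list of synaptic adhesion proteins, 9 of 42 tested members rose and 6 fell (35.7% called, 16% in the same mean classes, median log2 fold change -0.02). Lrrtm2, a postsynaptic leucine-rich repeat protein, averaged 3816 normalised counts in siBsx cells and 1785 in siNT cells, and Cadm1, a synaptic cell adhesion molecule, averaged 7979 normalised counts in siBsx cells and 4766 in siNT cells. Ncam1, the neural cell adhesion molecule, averaged 2446 normalised counts in siBsx cells and 3702 in siNT cells. Lrrtm2, Cadm1 and Ncam1 had log2 fold changes of 1.10 ± 0.10, 0.74 ± 0.06 and -0.60 ± 0.07 in the authors' deposited table. Cadm2, Flrt3, Tenm2, Tenm4, Nfasc, Cntn1 and Clstn1 were the other members that rose. The other ones that fell were Igsf9, described above and the lowest of the list, Flrt1 (log2 fold change -1.03 ± 0.16 in the authors' deposited table), Lrfn4, Cadm3 and Ptprd. Within the FLRT family, then, Flrt3 was higher and Flrt1 lower in siBsx cells. For classical cadherins and catenins, 1 of 18 tested members rose and 2 fell (16.7% called, 16.1% in the same mean classes, median log2 fold change -0.14), with Cdh2 (N-cadherin) higher at 18489 in siBsx cells and 14076 in siNT cells.

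Some axon guidance genes rose and others fell. For netrins, slits and their receptors, 2 of 16 tested members rose and none fell (12.5% called, 13.6% in the same mean classes, median log2 fold change -0.0011). These were the Slit receptor Robo2, at 8943 in siBsx cells and 5439.6 in siNT cells, and the netrin receptor Unc5d, at 368 in siBsx cells and 171 in siNT cells. For semaphorins, plexins and neuropilins, 1 of 28 tested members rose and 5 fell (21.4% called, 15.9% in the same mean classes, median log2 fold change -0.16), and the one that rose was Plxnb1 while Plxnb2, Plxna3, Sema7a, Sema3c and Sema4d fell. Among ephrins and Eph receptors, 2 of 16 tested members rose and 1 fell (18.8% called, 9.34% in the same mean classes, median log2 fold change 0.15), namely Efna2 and Efna5 on the higher side and Epha5 on the lower side. In the gap junction list, 1 of 6 tested members rose and 2 fell (50% called, 14.9% in the same mean classes, median log2 fold change -0.40). Gjd2 encodes connexin 36, the channel of electrical synapses between neurons, and averaged 3449 normalised counts in siBsx cells and 1140.0 in siNT cells. Gja1 encodes connexin 43, the main connexin of astrocytes, and averaged 355 normalised counts in siBsx cells and 879 in siNT cells. Gjd2 and Gja1 had log2 fold changes of 1.60 ± 0.07 and -1.31 ± 0.11 in the authors' deposited table.

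**Figure D2:**
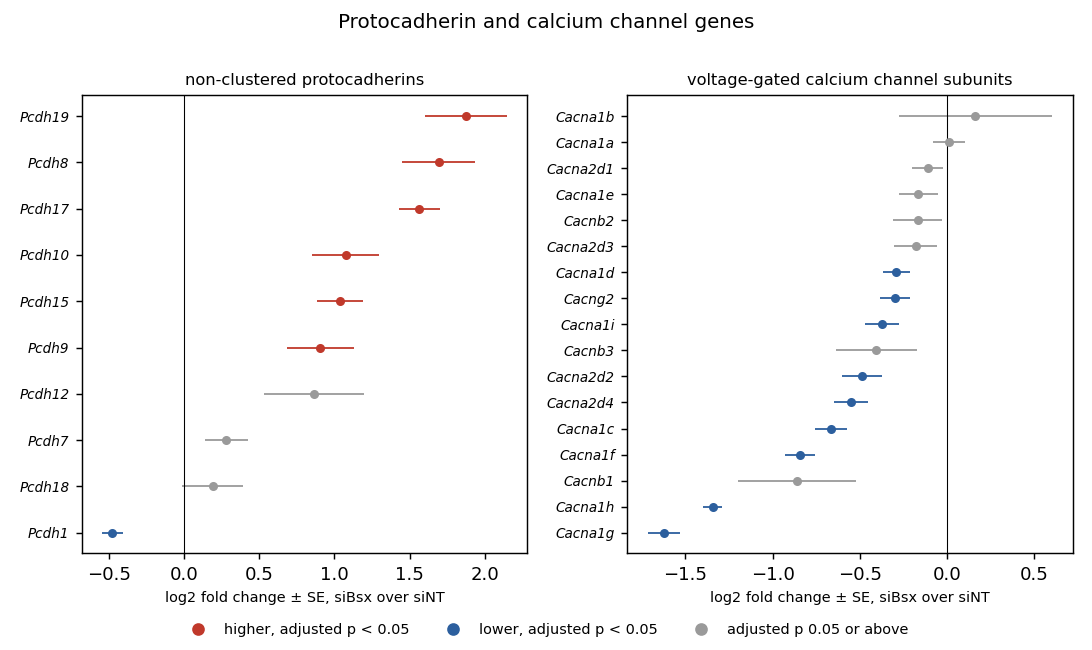
Genes in rows, with the log2 fold change and its standard error (siBsx over siNT, 3 libraries each, horizontal) of each tested non-clustered protocadherin (left) and voltage-gated calcium channel subunit (right). Points right of 0 are higher in siBsx cells; 6 of 10 protocadherins rose, and 9 of 17 channel subunits fell with none rising.

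Many genes of voltage-gated calcium channels were lower. Their pore-forming subunits open on depolarization and admit calcium, and the T-type group (Cacna1g, Cacna1h and Cacna1i) opens at low voltage. In this family, none of 17 tested members rose and 9 fell (52.9% called, 20.5% in the same mean classes, median log2 fold change -0.37), and 15 of the 17 were below 0 on the log2 scale. Cacna1g averaged 1344 normalised counts in siBsx cells and 4140.1 in siNT cells, and Cacna1h averaged 4685 normalised counts in siBsx cells and 11892 in siNT cells. The L-type subunits Cacna1c (2412 normalised counts in siBsx cells and 3823 in siNT cells), Cacna1f (1417 normalised counts in siBsx cells and 2540.2 in siNT cells) and Cacna1d (8514 normalised counts in siBsx cells and 10408 in siNT cells) also fell. Cacna1g, Cacna1h, Cacna1f and Cacna1c had log2 fold changes of -1.62 ± 0.09, -1.34 ± 0.06, -0.84 ± 0.09 and -0.66 ± 0.09 in the authors' deposited table. Of the 9 subunits that fell, 4 did so by at least 1.5-fold. Accessory subunits Cacna2d4, Cacna2d2 and Cacng2 also fell. The P/Q-type subunit Cacna1a (1155 normalised counts in siBsx cells and 1145 in siNT cells) and the R-type subunit Cacna1e (1239 normalised counts in siBsx cells and 1388 in siNT cells) did not pass.

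Potassium, cation and chloride channels changed in both directions. Among voltage-gated potassium channels, 2 of 24 tested members rose and 4 fell (25% called, 15% in the same mean classes, median log2 fold change -0.19). Kcnv2, a silent subunit that modifies channels of photoreceptors, averaged 357 normalised counts in siBsx cells and 129 in siNT cells, and Kcnh6, an ERG-type channel, averaged 10064 normalised counts in siBsx cells and 6555 in siNT cells. Kcnh1, an EAG-type channel, averaged 492 normalised counts in siBsx cells and 1007 in siNT cells. Among inward rectifiers and two-pore channels, 1 of 11 tested members rose and 2 fell (27.3% called, 7.81% in the same mean classes, median log2 fold change -0.28), with Kcnk2 (TREK-1) at 93.9 in siBsx cells and 238 in siNT cells and Kcnj14 at 3514 in siBsx cells and 5209 in siNT cells. Kcnv2, Kcnh6, Kcnh1 and Kcnk2 had log2 fold changes of 1.47 ± 0.21, 0.62 ± 0.06, -1.03 ± 0.10 and -1.34 ± 0.26 in the authors' deposited table.

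Hcn2, a hyperpolarization-activated pacemaker channel, averaged 1844 normalised counts in siBsx cells and 4001 in siNT cells, with a log2 fold change of -1.12 ± 0.06 in the authors' deposited table (adjusted p = 2.66e-81). Among pacemaker and TRP channels, 2 of 17 tested members rose and 3 fell (29.4% called, 13.1% in the same mean classes, median log2 fold change -0.06), including a fall of Trpm2. Chloride channels rose and fell in equal number (3 and 3 of 20 tested, 30% called, 17.9% in the same mean classes), with Ano6, a lipid scramblase and channel, at 592 in siBsx cells and 959 in siNT cells. None of 5 tested sodium channel genes and none of 5 tested calcium- or sodium-activated potassium channels passed the authors' DESeq2 test, with 1 and 0 at an unadjusted p under 0.05. Scn8a averaged 1895 normalised counts in siBsx cells and 2042 in siNT cells and Kcnma1 averaged 1934 normalised counts in siBsx cells and 1815 in siNT cells. For glutamate receptors, 1 of 10 tested members rose and 2 fell (30% called, 13.4% in the same mean classes, median log2 fold change -0.11), with Grm6 higher and Grin2c lower, and for GABA, glycine and nicotinic receptors, 3 of 17 tested members rose and 1 fell (23.5% called, 13.9% in the same mean classes, median log2 fold change -0.01), with Chrnb2, Chrnb4 and Gabrr1 higher.

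Several genes of G protein signalling changed. Noradrenaline reaches pinealocytes from sympathetic nerves and acts through beta- and alpha1-adrenergic receptors to raise cyclic AMP, the signal for melatonin synthesis. Adra1b, an alpha1 receptor, rose to 7875 in siBsx cells, against 5259 in siNT cells. Drd4, the dopamine D4 receptor, fell to 931 in siBsx cells, against 1234 in siNT cells. Vipr1, a receptor for vasoactive intestinal peptide, fell to 154 in siBsx cells, against 404 in siNT cells. Adra1b, Drd4 and Vipr1 had log2 fold changes of 0.58 ± 0.06, -0.41 ± 0.10 and -1.39 ± 0.20 in the authors' deposited table. Sstr3 rose and Gpr4 and Hcrtr1 fell in the larger list of peptide and purine receptors, where 4 of 52 tested members were called (7.69% called, 8.15% in the same mean classes), about as many as in those classes.

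Of the heterotrimeric G protein genes, 4 of 27 tested members rose and 7 fell (40.7% called, 21.1% in the same mean classes, median log2 fold change -0.01). Gnas, the stimulatory alpha subunit that couples receptors to adenylyl cyclase, averaged 72222 normalised counts in siBsx cells and 60421 in siNT cells, and Gnb2 averaged 4626 normalised counts in siBsx cells and 3359 in siNT cells. Gng13 averaged 334 normalised counts in siBsx cells and 609 in siNT cells and Gna11 averaged 446 normalised counts in siBsx cells and 708 in siNT cells. The largest difference was in Gnb3, the beta subunit of cones, at 10587 in siBsx cells and 25265 in siNT cells. Gnas, Gnb2, Gna11 and Gnb3 had log2 fold changes of 0.26 ± 0.05, 0.46 ± 0.07, -0.67 ± 0.12 and -1.25 ± 0.05 in the authors' deposited table. The cone alpha subunit Gnat2 was measured at 10616, 9514 and 10839 normalised counts in the 3 siNT libraries, and averaged 7442 in siBsx cells, below all 3 siNT libraries.

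Regulators of G protein signalling (RGS proteins) speed GTP hydrolysis. In the list that holds them with other G protein modulators, 3 of 25 tested members rose and 6 fell (36% called, 17.1% in the same mean classes, median log2 fold change -0.07). Rgs4 averaged 5207 normalised counts in siBsx cells and 2588 in siNT cells, whereas Rgs2, Rgs7, Rgs16, Grk1 and Grk6 were lower. Among adenylyl cyclases and phosphodiesterases, which make and break cyclic nucleotides, 3 of 27 tested members rose and 6 fell (33.3% called, 13.1% in the same mean classes, median log2 fold change 0.03). Pde4d averaged 5058 normalised counts in siBsx cells and 2896 in siNT cells and Adcy1 averaged 3219.8 normalised counts in siBsx cells and 2266 in siNT cells. Rgs4, Pde4d and Adcy1 had log2 fold changes of 1.01 ± 0.08, 0.80 ± 0.07 and 0.51 ± 0.08 in the authors' deposited table. Pde4b, Pde3a, Pde3b, Pde1c, Pde8b and Pde5a fell, and Pde4c rose from a low level (means of 55.1 in siBsx cells and 24.9 in siNT cells). The regulatory subunits of protein kinase A Prkar1a, Prkar2b and Prkar1b averaged 10129.7 in siBsx cells and 7842 in siNT cells, 6035 in siBsx cells and 4001 in siNT cells, and 657 in siBsx cells and 888 in siNT cells, and in the kinase A list, 4 of 31 tested members rose and 2 fell (19.4% called, 23.8% in the same mean classes, median log2 fold change 0.05), close to the share of all tested genes.

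Several genes of nitric oxide and calcium signalling were lower, and in the nitric oxide list 4 of 13 tested members passed (30.8% called, 11.3% in the same mean classes). Nos1, the neuronal nitric oxide synthase, averaged 23.9 normalised counts in siBsx cells and 76.1 in siNT cells, a low level. Pde5a, which hydrolyses cyclic GMP, averaged 39.9 normalised counts in siBsx cells and 89.2 in siNT cells, and Ddah1, which removes an inhibitor of nitric oxide synthase, averaged 3486 normalised counts in siBsx cells and 2304 in siNT cells. Nos1, Pde5a and Ddah1 had log2 fold changes of -1.67 ± 0.39, -1.16 ± 0.32 and 0.60 ± 0.08 in the authors' deposited table. Of the EF-hand calcium binders, 3 of 30 tested members rose and 7 fell (33.3% called, 14.8% in the same mean classes, median log2 fold change -0.18). Calbindin (Calb1) averaged 1384 normalised counts in siBsx cells and 2047 in siNT cells and Ncald averaged 2394 normalised counts in siBsx cells and 3154 in siNT cells. Calm3, a calmodulin gene, averaged 3951 normalised counts in siBsx cells, below all 3 siNT libraries (4683, 4574 and 4383).

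Calcium pumps, stores and exchangers rose in 5 and fell in 6 of 30 tested members (36.7% called, 18.8% in the same mean classes). Plasma membrane exchangers and pumps were among the falls. Slc8a2, a sodium-calcium exchanger, averaged 271 normalised counts in siBsx cells and 584 in siNT cells, Slc24a4 averaged 259 normalised counts in siBsx cells and 437 in siNT cells and the pump Atp2b4 averaged 1499 normalised counts in siBsx cells and 2256 in siNT cells. The rod-type exchanger Slc24a1 was measured at 3572, 3841 and 3528 in the 3 siNT libraries and averaged 1923 in siBsx cells, below all 3. Genes of intracellular stores, namely the endoplasmic reticulum pump Atp2a2, the Golgi pump Atp2c1, the release channel Itpr1 and the store sensor Stim2, rose by 0.19 to 0.37 (log2, the authors' deposited table), whereas the release channel Itpr3 and the store-operated channel Orai1 fell. For CaM kinases and calcineurin, 2 of 21 tested members rose and 4 fell (28.6% called, 18.9% in the same mean classes, median log2 fold change 0.01), with Camk2b at 3845 in siBsx cells and 5753 in siNT cells. Plch2, a phospholipase C, averaged 542 normalised counts in siBsx cells and 1204 in siNT cells, and 5 of 28 tested genes of phospholipase C, protein kinase C and diacylglycerol kinases passed (17.9% called, 18.2% in the same mean classes), no more than in those classes.

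**Figure D3:**
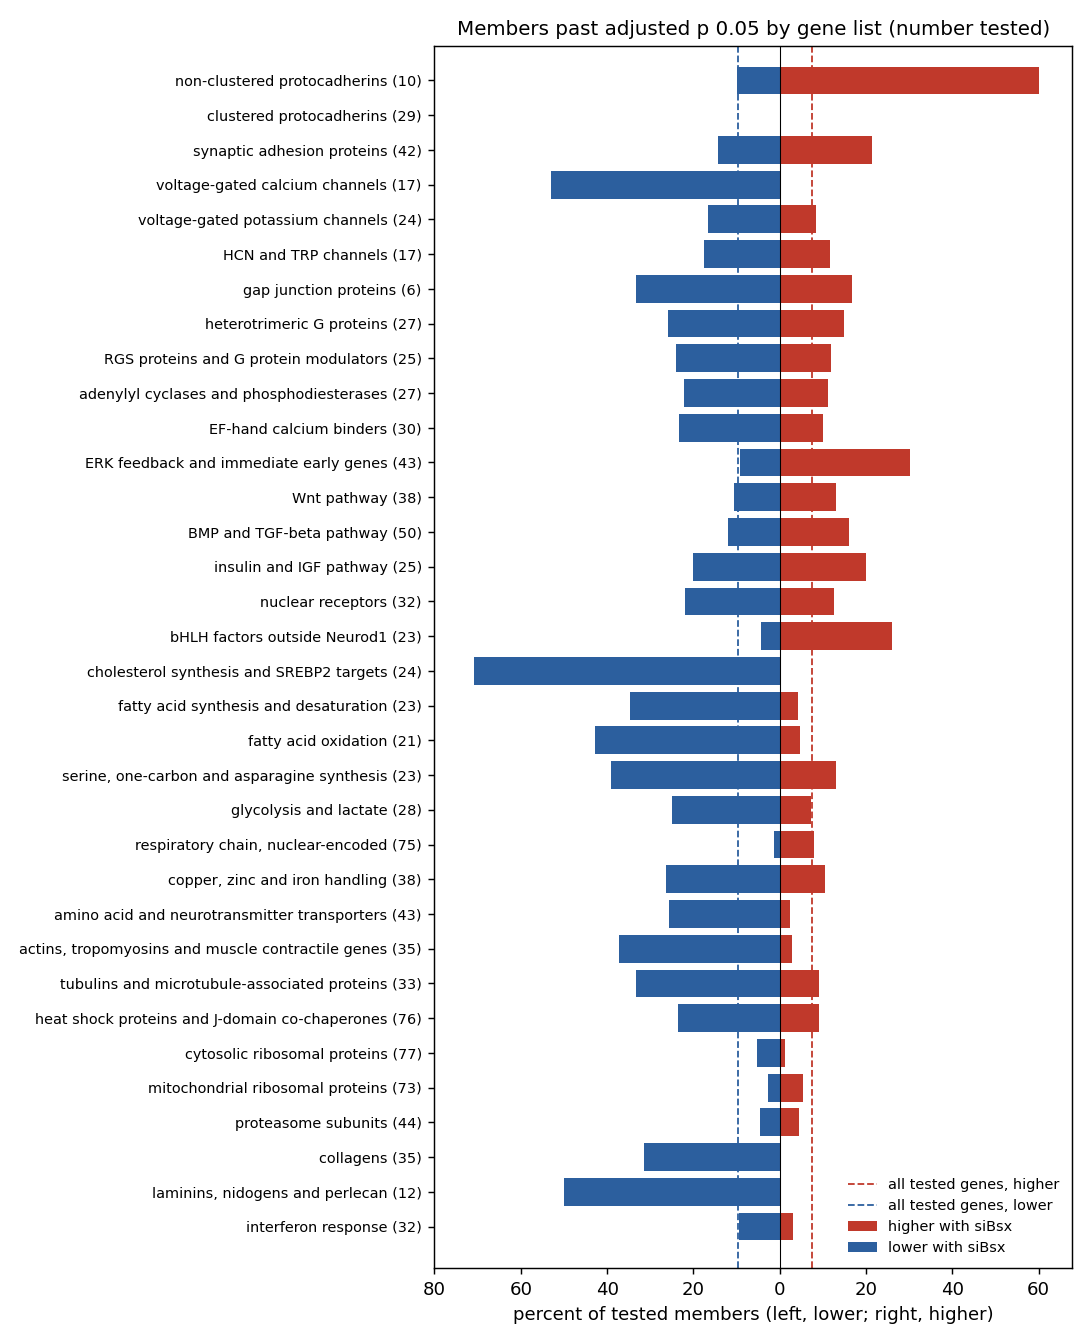
Percent of tested members that were lower (left, blue) or higher (right, red) in siBsx cells than in siNT cells at an adjusted p under 0.05, for 34 gene lists with the number tested in brackets. Dashed lines mark 9.61% lower and 7.59% higher among all tested genes; the longest bars are those of sterol synthesis (70.8% lower, no member higher) and the non-clustered protocadherins.

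Several immediate early genes were higher. They encode transcription factors and effectors that respond within minutes to calcium, cyclic AMP or growth factor signals. In a list of immediate early genes, phosphatases of the Dusp family and Sprouty proteins, 13 of 43 tested members rose and 4 fell (39.5% called, 15.2% in the same mean classes, median log2 fold change 0.09). Some of these phosphatases and the Sprouty proteins limit ERK kinase signalling, and others of the Dusp family do not act on ERK. Npas4, a factor induced by calcium entry in neurons, averaged 162 normalised counts in siBsx cells and 58.6 in siNT cells. Arc, a synaptic regulator, averaged 505 normalised counts in siBsx cells and 202 in siNT cells, and Jun averaged 7939 normalised counts in siBsx cells and 5622 in siNT cells. Npas4, Arc, Egr3, Fosb and Jun had log2 fold changes of 1.46 ± 0.29, 1.32 ± 0.16, 0.97 ± 0.34, 0.59 ± 0.12 and 0.50 ± 0.14 in the authors' deposited table. At least a 1.5-fold difference was seen for 5 of the 13 members that rose. Fos, Junb, Jund, Ier5, Ier5l, Dusp5, Dusp11 and Spred1 also rose. Spry2, Dusp10, Dusp15 and Dusp1 fell, and Spry2, a feedback inhibitor of receptor tyrosine kinases, averaged 400.3 normalised counts in siBsx cells and 632 in siNT cells. Egr1, at 2631 in siBsx cells and 2779.9 in siNT cells, did not pass. RNA was taken at a single time, so no course of these genes is known.

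**Figure D4:**
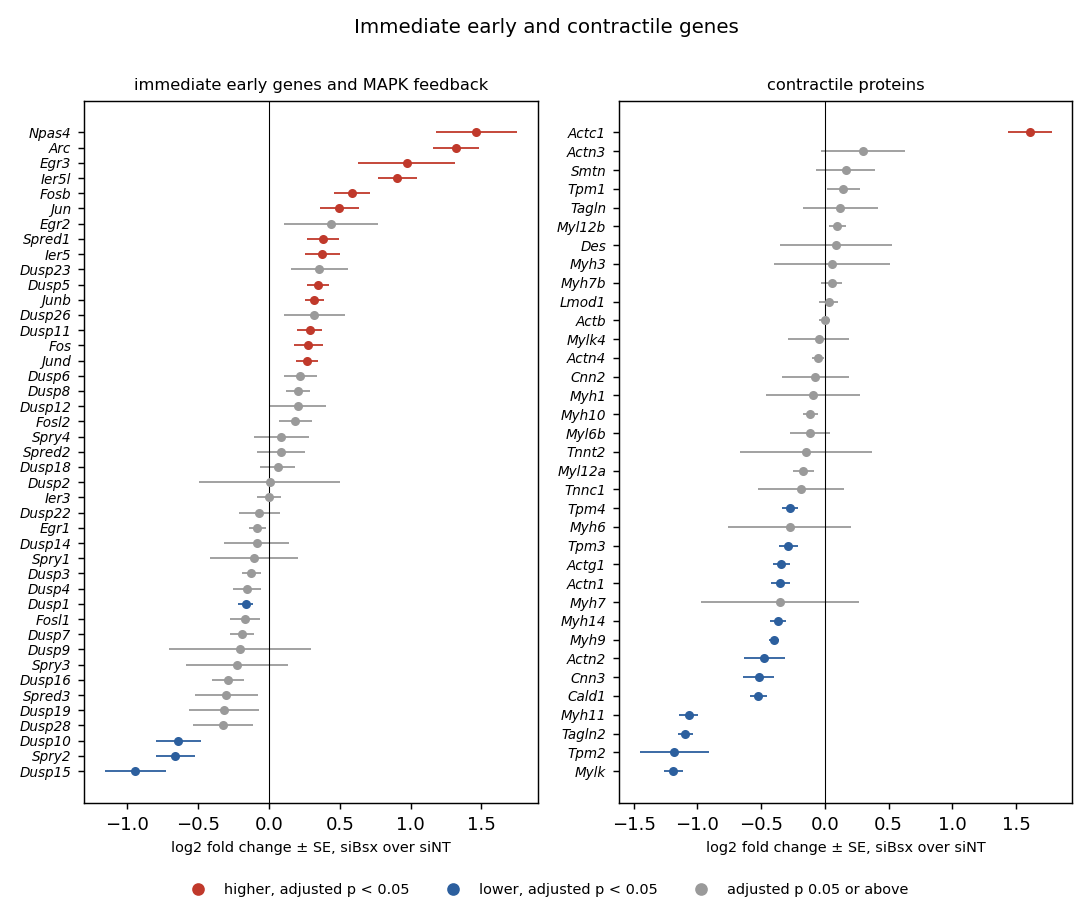
Log2 fold change with its standard error (siBsx over siNT, 3 libraries each, horizontal) for each tested gene of the immediate early and ERK feedback list (left) and of the contractile list (right), 1 gene per row. In the left panel 13 members lie to the right of 0 with an adjusted p under 0.05 and 4 to the left, and in the right panel 1 member (Actc1) lies to the right and 13 to the left.

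Growth factor pathways held rises and falls. In the Wnt pathway, Frizzled receptors Fzd8 (697 normalised counts in siBsx cells and 295 in siNT cells), Fzd7 (387 normalised counts in siBsx cells and 168 in siNT cells) and Fzd5 (191 normalised counts in siBsx cells and 119 in siNT cells) were higher, with log2 fold changes of 1.24 ± 0.17, 1.20 ± 0.17 and 0.68 ± 0.24 in the authors' deposited table. Kremen1, a receptor for the Wnt inhibitor Dickkopf, and the nuclear factors Lef1 and Tcf7l1 were lower. For the whole Wnt list, 5 of 38 tested members rose and 4 fell (23.7% called, 12.7% in the same mean classes, median log2 fold change 0.02). In the insulin and IGF list, 5 of 25 tested members rose and 5 fell (40% called, 21.8% in the same mean classes, median log2 fold change -0.04). Irs1, the adaptor under the insulin and IGF1 receptors, averaged 4457 normalised counts in siBsx cells and 9871 in siNT cells, and the IGF-binding proteins Igfbp3, Igfbp4, Igfbp5 and Igfbp7 were also lower. Foxo3, Pik3ca, Pik3r2 and Grb10 rose by 0.26 to 0.39, and Irs1 fell with a log2 fold change of -1.15 ± 0.06 (the authors' deposited table).

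Members of the BMP and TGF-beta pathway rose or fell in similar number, and in that list, 8 of 50 tested members rose and 6 fell (28% called, 16.1% in the same mean classes, median log2 fold change 0.02). The ligands Bmp2 and Tgfb2, the receptors Acvr2a, Bmpr1a and Tgfbr3 and the signal transducers Smad2 and Smad9 were higher, as was Id2, while Id1, a standard BMP target, fell to 4499 in siBsx cells, against 6076 in siNT cells. Among Notch genes, 3 of 25 tested members rose and 2 fell (20% called, 14.5% in the same mean classes, median log2 fold change -0.08), among them the ligand Jag1, the nuclear factor Rbpj and the target Hes1 on the higher side and Notch1 and Mfng on the lower side. Ntf3, which encodes the neurotrophin NT-3, averaged 98 normalised counts in siBsx cells and 255 in siNT cells (log2 fold change -1.38 ± 0.25 in the authors' deposited table). For FGF genes, none of 16 tested members rose and 2 fell (12.5% called, 11.5% in the same mean classes, median log2 fold change 0.08), Fgf1 and its receptor Fgfr1, and for Hedgehog genes, 1 of 12 tested members rose and 2 fell (25% called, 15.3% in the same mean classes, median log2 fold change -0.20). Among ligands and receptors of the VEGF, PDGF and EGF families, Kit rose to 21411 in siBsx cells, against 17126 in siNT cells, and Pdgfrb, Pdgfra, Erbb2 and Ereg fell (17.9% called, 9.94% in the same mean classes).

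Transcription factors outside the known pineal set included strong rises. Neurod4, a proneural basic helix-loop-helix factor of the developing retina, averaged 43479.9 normalised counts in siBsx cells and 15987 in siNT cells, and Irx1, an Iroquois homeobox factor, averaged 6376 normalised counts in siBsx cells and 2488 in siNT cells. Sox11, a factor of immature neurons, averaged 213 normalised counts in siBsx cells and 101 in siNT cells, and Foxc1 averaged 412 normalised counts in siBsx cells and 227 in siNT cells. Neurod4, Irx1, Sox11 and Foxc1 had log2 fold changes of 1.44 ± 0.07, 1.36 ± 0.07, 1.07 ± 0.21 and 0.86 ± 0.16 in the authors' deposited table. Among basic helix-loop-helix factors, 6 of 23 tested members rose and 1 fell (30.4% called, 14% in the same mean classes, median log2 fold change 0.05), and among homeobox genes, 4 of 34 tested members rose and 1 fell (14.7% called, 13.1% in the same mean classes, median log2 fold change -0.05), including Gbx2 and Lmx1a from low levels. Sox18 was the other member of the Sox list that rose, among 10 tested (20% called, 8.91% in the same mean classes).

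Groucho corepressors, which are recruited by homeodomain and Hes factors, changed in both directions. Tle6, described above, and Tle2 (317 normalised counts in siBsx cells and 637 in siNT cells) were lower, and Tle3 (10712 normalised counts in siBsx cells and 7918 in siNT cells) and Tle4 (3141 normalised counts in siBsx cells and 2661 in siNT cells) were higher. In the list that holds them with the Bcl11 and Zbtb repressors, 11 of 54 tested members passed (20.4% called, 18.5% in the same mean classes). Bcl11b, a zinc finger repressor, averaged 25.6 normalised counts in siBsx cells and 88.5 in siNT cells. Tle2, Tle3, Tle4 and Bcl11b had log2 fold changes of -1.01 ± 0.14, 0.44 ± 0.05, 0.24 ± 0.06 and -1.79 ± 0.44 in the authors' deposited table. Among nuclear receptors, 4 of 32 tested members rose and 7 fell (34.4% called, 19.9% in the same mean classes, median log2 fold change 0.04), with the retinoic acid receptor Rarg at 413 in siBsx cells and 718 in siNT cells, its partner Rxra lower and Rxrg and Esrrg higher. Of chromatin regulators, 11 of 74 tested genes were called (14.9%), and of histone genes 1 of 33 (3.03%), both under the share called in all tested genes of the same mean classes (27.3% and 16%). Of Kruppel-like and Sp factors 4 of 19 passed (21.1% called, 14.7% in the same mean classes), and of forkhead factors 3 of 16 (18.8% called, 18% in the same mean classes).

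Most genes of cholesterol synthesis were lower. Cells make cholesterol from acetyl-CoA through mevalonate and squalene, and when sterols run low the transcription factor SREBP2 is cut from the endoplasmic reticulum and activates these genes. For this pathway, none of 24 tested members rose and 17 fell (70.8% called, 25.1% in the same mean classes, median log2 fold change -0.31), and all 24 tested members had a log2 fold change below 0. The differences were small, and 3 of the 17 that fell did so by at least 1.5-fold. Hmgcs1, which makes HMG-CoA, averaged 3947 normalised counts in siBsx cells and 6214 in siNT cells. Its log2 fold change was -0.65 ± 0.07 in the authors' deposited table.

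Genes of later steps were lower as well. Idi1, which isomerizes isopentenyl diphosphate, averaged 2850.4 normalised counts in siBsx cells and 3572 in siNT cells, and Fdft1, squalene synthase, averaged 3865 normalised counts in siBsx cells and 4891 in siNT cells. Msmo1, a sterol methyl oxidase, averaged 1599 normalised counts in siBsx cells and 2425 in siNT cells, and Dhcr7, a reductase of the last steps, averaged 529 normalised counts in siBsx cells and 731 in siNT cells. Insig1, the feedback sensor that retains SREBP2, averaged 7448 normalised counts in siBsx cells and 10560.3 in siNT cells. Msmo1 and Insig1 had log2 fold changes of -0.60 ± 0.07 and -0.50 ± 0.05 in the authors' deposited table. Srebf2, which encodes SREBP2, fell to 6906 in siBsx cells, against 8183 in siNT cells. Sqle, Sc5d, Nsdhl, Mvk, Stard4, Hsd17b7 and Ebp did not pass.

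Promoters of 3 genes of this pathway that fell are shown, since its members moved together. RefSeq promoters matched 17 of the 25 listed genes. The CCAAT box, the motif of the factor NF-Y, was found on either strand in 14 of these 17 (82.4%), and in 37.7% of all promoters. In the 12 that fell and had a promoter it was in 9 (75%), no larger a share than among the 17. The letters TCACNCCAC, a form of the sterol regulatory element, were in none of the 17 windows and in 1.13% of all promoters. The windows are those of Hmgcs1 (chr2:53382054-53382353, plus strand), Msmo1 (chr16:29746863-29747162, plus strand) and Insig1 (chr4:8057720-8058019, minus strand), with CCAAT or its reverse complement ATTGG in capitals.
Hmgcs1: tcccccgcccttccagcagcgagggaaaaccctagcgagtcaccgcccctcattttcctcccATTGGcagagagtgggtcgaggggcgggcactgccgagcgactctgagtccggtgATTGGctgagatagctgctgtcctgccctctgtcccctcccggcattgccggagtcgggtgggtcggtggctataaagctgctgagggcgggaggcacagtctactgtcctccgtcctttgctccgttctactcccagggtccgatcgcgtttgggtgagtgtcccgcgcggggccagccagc
Msmo1: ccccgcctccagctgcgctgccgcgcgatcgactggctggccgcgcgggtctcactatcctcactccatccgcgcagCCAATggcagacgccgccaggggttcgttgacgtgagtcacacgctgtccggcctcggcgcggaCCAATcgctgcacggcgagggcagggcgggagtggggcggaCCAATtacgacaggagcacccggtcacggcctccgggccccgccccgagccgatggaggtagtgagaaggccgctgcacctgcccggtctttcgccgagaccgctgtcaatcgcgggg
Insig1: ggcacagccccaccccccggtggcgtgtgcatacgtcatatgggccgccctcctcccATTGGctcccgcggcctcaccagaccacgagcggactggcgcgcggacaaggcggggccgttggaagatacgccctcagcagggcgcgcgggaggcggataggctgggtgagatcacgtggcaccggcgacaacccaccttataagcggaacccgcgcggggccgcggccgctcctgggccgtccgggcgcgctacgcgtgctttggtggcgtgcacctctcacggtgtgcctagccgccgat

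**Figure D5:**
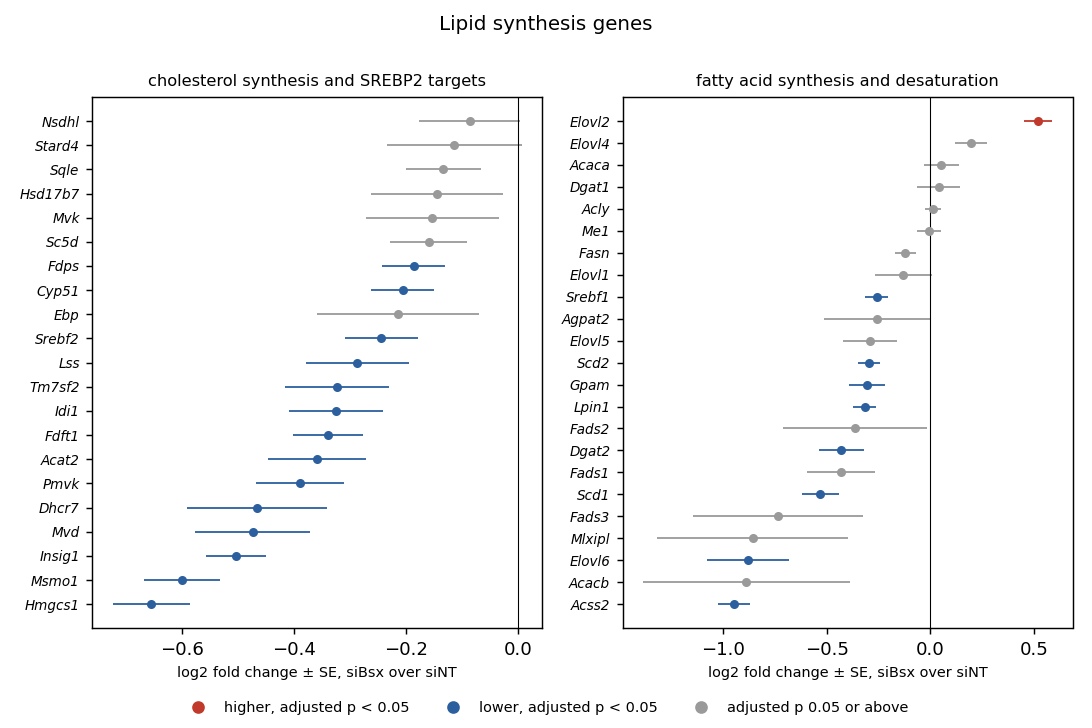
Log2 fold change with its standard error (siBsx over siNT, 3 libraries each, horizontal) for 21 of the 24 tested genes of cholesterol synthesis and SREBP2 targets (left) and for each tested gene of fatty acid synthesis and desaturation (right), 1 gene per row. In the left panel every point lies left of 0 and 14 of the 21 passed, and in the right panel 8 of 23 fell and Elovl2 rose.

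Several fatty acid genes were lower too. In fatty acid synthesis and desaturation, 1 of 23 tested members rose and 8 fell (39.1% called, 19.8% in the same mean classes, median log2 fold change -0.30). Acss2, which makes acetyl-CoA from acetate, averaged 1134 normalised counts in siBsx cells and 2187 in siNT cells, Elovl6 averaged 235 normalised counts in siBsx cells and 432 in siNT cells, and the desaturase Scd1 averaged 2320.4 normalised counts in siBsx cells and 3350.3 in siNT cells. Elovl2, an elongase of polyunsaturated fatty acids, was the member that rose, at 4694 in siBsx cells and 3278 in siNT cells. For fatty acid oxidation in mitochondria and peroxisomes, 1 of 21 tested members rose and 9 fell (47.6% called, 23.7% in the same mean classes, median log2 fold change -0.22). Cpt1a and Cpt2, which carry acyl groups into mitochondria, averaged 2501 normalised counts in siBsx cells and 3235 in siNT cells and 906 normalised counts in siBsx cells and 1678 in siNT cells, and Acadl, a long-chain dehydrogenase, averaged 1064 normalised counts in siBsx cells and 693 in siNT cells. Acss2, Elovl6, Elovl2, Cpt2 and Acadl had log2 fold changes of -0.95 ± 0.08, -0.88 ± 0.20, 0.52 ± 0.07, -0.89 ± 0.10 and 0.62 ± 0.12 in the authors' deposited table. The cholesterol exporters Abca1 (4916 normalised counts in siBsx cells and 6936 in siNT cells) and Abcg1 (943 normalised counts in siBsx cells and 1453 in siNT cells) were lower too, so genes of sterol supply and genes of sterol export fell side by side. In the list of efflux and lipoprotein receptor-related genes, 1 of 27 tested members rose and 8 fell (33.3% called, 18.3% in the same mean classes, median log2 fold change -0.16), and the one that rose was Vldlr.

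In one-carbon metabolism and glycolysis more members fell than rose. For serine, one-carbon and asparagine synthesis, 3 of 23 tested members rose and 9 fell (52.2% called, 18.2% in the same mean classes, median log2 fold change -0.20). Shmt2 averaged 2004 normalised counts in siBsx cells and 2764 in siNT cells, Mthfd1l averaged 223 normalised counts in siBsx cells and 335 in siNT cells and Psph averaged 3353 normalised counts in siBsx cells and 4210.2 in siNT cells. For glycolysis, 2 of 28 tested members rose and 7 fell (32.1% called, 26.9% in the same mean classes, median log2 fold change -0.06). Hexokinase 2 (Hk2) averaged 4851 normalised counts in siBsx cells and 7511 in siNT cells, and Tpi1 averaged 11045 normalised counts in siBsx cells and 16565 in siNT cells. Shmt2, Hk2 and Tpi1 had log2 fold changes of -0.46 ± 0.08, -0.63 ± 0.05 and -0.58 ± 0.05 in the authors' deposited table. In the citric acid cycle Cs (citrate synthase), Idh3a and Idh2 fell and Idh3g, Ogdhl and Sdhb rose (30.4% called, 29.2% in the same mean classes). Bcat1, which starts the breakdown of branched-chain amino acids, fell to 23488 in siBsx cells, against 36585 in siNT cells, while 4 of the 24 genes of that pathway passed (16.7% called, 18.3% in the same mean classes). For glutathione and NRF2 targets, 8 of 30 fell, among them Slc7a11, Gstp1 and Gsta1, and 3 rose (36.7% called, 27% in the same mean classes).

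Large housekeeping complexes changed in few members. For nuclear-encoded respiratory chain subunits, 6 of 75 tested members rose and 1 fell (9.33% called, 26.2% in the same mean classes, median log2 fold change 0.08), and Ndufb10 was the member that fell. For cytosolic ribosomal proteins, 1 of 77 tested members rose and 4 fell (6.49% called, 29.5% in the same mean classes, median log2 fold change -0.01). For mitochondrial ribosomal proteins, 4 of 73 tested members rose and 2 fell (8.22% called, 18.4% in the same mean classes, median log2 fold change 0.07). For proteasome subunits, 2 of 44 tested members rose and 2 fell (9.09% called, 24.6% in the same mean classes, median log2 fold change -0.00029). All 4 groups had fewer calls than tested genes of the same mean classes. Every called member of the cytosolic ribosome and the proteasome had a log2 fold change between -0.23 and 0.22 in the authors' deposited table.

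Chaperone genes were lower more often than higher, with 18 of 76 tested heat shock and J-domain genes lower and 7 higher (32.9% called, 24.4% in the same mean classes). The cytosolic chaperones Hsp90aa1 (56676 normalised counts in siBsx cells and 72613 in siNT cells) and Hspa8 (17896 normalised counts in siBsx cells and 23493 in siNT cells) and the mitochondrial Hspa9 (19028 normalised counts in siBsx cells and 24753 in siNT cells) fell, as did their regulator Hsf1. Hspa2, a testis-enriched HSP70, rose to 1232 in siBsx cells, against 459 in siNT cells. Hsp90aa1, Hspa8, Hsf1 and Hspa2 had log2 fold changes of -0.36 ± 0.04, -0.39 ± 0.05, -0.43 ± 0.07 and 1.42 ± 0.10 in the authors' deposited table. In the unfolded protein response, 2 of 34 tested members rose and 5 fell (20.6% called, 24.5% in the same mean classes, median log2 fold change -0.01), with Xbp1 at 2416 in siBsx cells and 1612 in siNT cells. Lysosomal genes fell in 10 and rose in 4 of 48 tested members (29.2% called, 23.1% in the same mean classes), with the cathepsin Ctsb and acid glucosidase Gaa lower and Gusb higher. In the autophagy list (5 of 32, 15.6% called, 21.4% in the same mean classes), the receptor Sqstm1 (p62) fell to 16420.0 in siBsx cells, against 22903 in siNT cells.

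Metal and solute transporters held some of the largest rises at high level. Atp7b, a copper-transporting ATPase, averaged 23402 normalised counts in siBsx cells and 8489 in siNT cells. The rat pineal gland makes a short transcript from this gene (PINA), and counts per gene do not tell the forms apart. Slc39a8, a zinc and manganese importer, averaged 4257 normalised counts in siBsx cells and 2344 in siNT cells. The metallothionein Mt1 averaged 164 normalised counts in siBsx cells and 283 in siNT cells, and Steap3, an iron reductase, averaged 70.3 normalised counts in siBsx cells and 155 in siNT cells. Atp7b, Slc39a8, Mt1 and Steap3 had log2 fold changes of 1.46 ± 0.07, 0.86 ± 0.07, -0.79 ± 0.23 and -1.14 ± 0.25 in the authors' deposited table. Over copper, zinc and iron genes, 4 of 38 tested members rose and 10 fell (36.8% called, 21.3% in the same mean classes, median log2 fold change -0.10), the transferrin receptor Tfrc and the copper importer Slc31a1 among the lower ones.

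Cation-chloride cotransporters set the chloride gradient on which GABA and glycine receptors act. Slc12a2 (NKCC1), which loads chloride, averaged 17826 normalised counts in siBsx cells and 10229.8 in siNT cells, and Slc12a5 (KCC2), which extrudes it in mature neurons, averaged 2621 normalised counts in siBsx cells and 4769.7 in siNT cells. Slc12a2 and Slc12a5 had log2 fold changes of 0.80 ± 0.06 and -0.86 ± 0.06 in the authors' deposited table. Among amino acid and neurotransmitter transporters, 1 of 43 tested members rose and 11 fell (27.9% called, 17.1% in the same mean classes, median log2 fold change -0.24), including Slc6a9 (a glycine transporter, 1119 normalised counts in siBsx cells and 1818 in siNT cells), Slc7a5 and Slc38a3, and the one that rose was Slc3a1. Sodium pump genes gave 3 calls among 10 tested (30% called, 19.9% in the same mean classes), with Atp1b3 at 1134 in siBsx cells and 1796 in siNT cells. Of sugar, monocarboxylate and nucleoside carriers, 5 of 39 rose (Slc29a4, Slc5a8, Slco3a1, Slc5a7 and Slc2a8) and 2 fell (17.9% called, 11.8% in the same mean classes).

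Secretory genes moved in both directions. For synaptotagmins and SNARE proteins, 3 of 55 tested members rose and 8 fell (20% called, 18.7% in the same mean classes, median log2 fold change 0.04). Cplx3, a complexin of ribbon synapses, averaged 9838 normalised counts in siBsx cells and 16135 in siNT cells. The related complexin Cplx4 averaged 7974 normalised counts in siBsx cells and 6927 in siNT cells. Cplx3 and Cplx4 had log2 fold changes of -0.71 ± 0.06 and 0.20 ± 0.06 in the authors' deposited table. Of the granins, Chgb (19662 normalised counts in siBsx cells and 14544 in siNT cells) and Scg3 rose and Scg2 (1669.7 normalised counts in siBsx cells and 2455 in siNT cells) and Chga fell, in a list of 20 tested granins and processing enzymes (35% called, 23.6% in the same mean classes). Among 10 tested neuropeptide genes, Adm (adrenomedullin) rose (10% called, 7.23% in the same mean classes), and Penk, at 4449 in siBsx cells and 4637 in siNT cells, did not pass.

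Among contractile, tubulin and motor genes more members fell than rose. Of actins, tropomyosins and other contractile genes, 1 of 35 tested members rose and 13 fell (40% called, 17.3% in the same mean classes, median log2 fold change -0.15). Of the 13 that fell, 4 did so by at least 1.5-fold. Mylk, myosin light chain kinase, averaged 1865 normalised counts in siBsx cells and 4248 in siNT cells, Myh11, smooth muscle myosin, averaged 2953 normalised counts in siBsx cells and 6198 in siNT cells, and Tagln2 averaged 2303 normalised counts in siBsx cells and 4920.4 in siNT cells. Actc1, cardiac alpha-actin, was the exception, at 617 in siBsx cells and 203 in siNT cells. Mylk, Myh11, Tagln2 and Actc1 had log2 fold changes of -1.19 ± 0.07, -1.07 ± 0.07, -1.10 ± 0.06 and 1.61 ± 0.17 in the authors' deposited table. For tubulins and microtubule-associated proteins, 3 of 33 tested members rose and 11 fell (42.4% called, 25.1% in the same mean classes, median log2 fold change -0.11), the alpha-tubulins Tuba1a, Tuba1b, Tuba1c and Tuba4a all lower and Map1b (203667 normalised counts in siBsx cells and 162721 in siNT cells) and Map2 higher. For motor proteins, 5 of 74 tested members rose and 13 fell (24.3% called, 20.6% in the same mean classes, median log2 fold change -0.09), with the neuronal kinesin Kif5c at 1988 in siBsx cells and 3858 in siNT cells. In intraflagellar transport and the BBSome 4 rose and 5 fell of 42 tested (21.4% called, 20.7% in the same mean classes), about as many as in those classes. Intermediate filaments and septins gave 5 rises, Nefm (532 normalised counts in siBsx cells and 286 in siNT cells) among them, and 6 falls in 31 tested members (35.5% called, 16.6% in the same mean classes).

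Collagen and laminin genes were lower where they passed. Of collagens, none of 35 tested members rose and 11 fell (31.4% called, 11.6% in the same mean classes, median log2 fold change -0.24). Of laminins, nidogens and perlecan, none of 12 tested members rose and 6 fell (50% called, 17.9% in the same mean classes, median log2 fold change -0.20). The basement membrane collagens Col4a1 (1761 normalised counts in siBsx cells and 2442 in siNT cells) and Col4a2 fell, as did Col8a1 (6832 normalised counts in siBsx cells and 10064 in siNT cells), the nidogens Nid1 and Nid2, Lama5 and agrin (Agrn). Col4a1, Col8a1, Nid1 and Lama5 had log2 fold changes of -0.47 ± 0.09, -0.56 ± 0.04, -0.48 ± 0.12 and -0.67 ± 0.11 in the authors' deposited table. Among integrins, the receptors of this matrix, 2 of 22 tested members rose and 6 fell (36.4% called, 12.9% in the same mean classes, median log2 fold change -0.06), with Itgb1, Itga6 and Itga3 lower and Itga5 and Itgb4 higher. In metalloproteinases and their inhibitors, Timp4 and Adamts1 rose and 7 of 41 tested members fell (22% called, 12.7% in the same mean classes).

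Matrix and contractile genes are also genes of non-pineal cells, so their markers are given beside them. Mural cell markers summed to 3694 normalised counts in siBsx cells and 7243 in siNT cells, most of it Myh11, and 2 of 6 tested markers fell, Myh11 and Pdgfrb (33.3% called, 10% in the same mean classes). Acta2, a defining marker of these cells, had a mean of 14.5 normalised counts over the 6 libraries and Rgs5 of 9.14. Fibroblast markers summed to 5059 in siBsx cells and 6009 in siNT cells, with 3 of 12 tested lower, namely Fn1, Col6a1 and Pdgfra (25% called, 9.93% in the same mean classes). The collagens Col1a1, Col1a2 and Col3a1 were not among those that passed. Astrocyte markers summed to 12689 in siBsx cells and 15003 in siNT cells, with 4 of 9 lower, namely Gja1, Glul, Aldoc and Apoe (44.4% called, 19.7% in the same mean classes), and the defining astrocyte gene Gfap had a mean of 11.6.

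In each of the next 5 lists at most 1 member passed. Endothelial markers summed to 1006 in siBsx cells and 1002 in siNT cells, and none of 8 passed the authors' DESeq2 test (0 at an unadjusted p under 0.05). Microglial markers summed to 543 in siBsx cells and 489 in siNT cells, with Cd68 higher of 4 tested (25% called, 4.45% in the same mean classes), and Schwann cell markers to 1871 in siBsx cells and 1741 in siNT cells, with Mal higher of 7 (14.3% called, 8.77% in the same mean classes). Erythroid markers summed to 2187 in siBsx cells and 1538 in siNT cells, with Hba2 higher of 5 (20% called, 8.53% in the same mean classes). Neuron markers summed to 49908 in siBsx cells and 52539.9 in siNT cells, with Nefm higher of 7 (14.3% called, 19.8% in the same mean classes). Snap25 held most of the neuron sum, at 43125 in siBsx cells and 45921 in siNT cells. The 6 neuron markers without an adjusted p included Rbfox3 and Gad1, with means of 1.97 and 14.1 over the 6 libraries. Pinealocyte markers summed to 547482 in siBsx cells and 583878 in siNT cells. Most of that sum was Tph1, the first enzyme of the path to melatonin, at 415142 in siBsx cells and 455476 in siNT cells. Of the 11 pinealocyte markers, all tested, 3 rose (Sag, Gngt1 and Asmt) and 5 fell (Tph1, Chga, Crx, Aanat and Gnat2), which is 72.7% called against 33.8% in the same mean classes. Their log2 fold changes lay between -0.47 (Gnat2) and 0.83 (Sag) in the authors' deposited table, and the lowest mean of a marker was 555 normalised counts (Rcvrn). The part that a change in cell makeup has in the matrix, contractile and connexin 43 results was not tested.

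For the cell cycle and DNA replication, 1 of 53 tested members rose and 4 fell (9.43% called, 13.5% in the same mean classes, median log2 fold change -0.08), with the cyclin Ccnd2 at 5313 in siBsx cells and 8447 in siNT cells and the imprinted inhibitor Cdkn1c at 313 in siBsx cells and 145 in siNT cells. For p53 targets and apoptosis regulators, 3 of 37 tested members rose and 4 fell (18.9% called, 15.8% in the same mean classes, median log2 fold change -0.05), with Pmaip1 (Noxa), Ccng1 and Mdm2 higher and Apaf1, Bak1, Bcl2l2 and Tp53i11 lower. For the interferon response, 1 of 32 tested members rose and 3 fell (12.5% called, 12% in the same mean classes, median log2 fold change -0.19), with Ifit3 at 110.1 in siBsx cells and 252 in siNT cells and Rsad2 at 334 in siBsx cells and 691 in siNT cells. Ccnd2, Cdkn1c, Ifit3 and Rsad2 had log2 fold changes of -0.67 ± 0.06, 1.11 ± 0.22, -1.19 ± 0.28 and -1.05 ± 0.18 in the authors' deposited table. Class I and antigen presentation genes fell in 5 of 33 tested members and rose in none (15.2% called, 18% in the same mean classes), no more often than in those classes, with changes of -0.14 to -0.41 (log2, the authors' deposited table). In complement, Serping1 rose among 16 tested (6.25% called, 10.8% in the same mean classes). Chemokines, interleukins and TAFA proteins passed in 5 of 52 tested members (9.62% called, 8.19% in the same mean classes), Cxcl14 (2139 normalised counts in siBsx cells and 783 in siNT cells) and Fam19a3 being the largest in either direction. Among imprinted and MAGE genes, Magel2, Cdkn1c, Grb10 and Gnas rose and Plagl1 fell (20% called, 21.1% in the same mean classes). In the amyloid precursor family, App rose to 8853 in siBsx cells, against 7784 in siNT cells and Aplp1 fell to 10951 in siBsx cells, against 12098 in siNT cells, both small beside Apbb1 (22.2% called, 20.9% in the same mean classes).

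The Lhx4 knockdown, which shares the 3 siNT libraries with the Bsx knockdown, gives each gene a second value in the authors' deposited tables. For Pcdh8 the log2 fold change was 1.70 with siBsx and 0.98 with siLhx4, and for Cxcl14 it was 1.45 with siBsx and 1.28 with siLhx4. Gjd2 had 1.60 with siBsx and -0.86 with siLhx4 (adjusted p 3.12e-26 in the authors' deposited siLhx4 table). Tcn2 had 1.46 with siBsx and -0.58 with siLhx4, and Actc1 had 1.61 with siBsx and -0.72 with siLhx4. Of the 25 largest rises with siBsx named above, these 3 genes were the only ones that fell with siLhx4. Neurod4 had 1.44 with siBsx and 0.08 with siLhx4, and Cacna1h had -1.34 with siBsx and 0.03 with siLhx4, neither of which passed with siLhx4. Bsx itself was lower with siLhx4 as well, with a log2 fold change of -0.86 in the authors' deposited table. Ntf3 had -1.38 with siBsx and -1.94 with siLhx4. The difference between the knockdowns was not tested here, and these genes were chosen after their values were seen.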

How the data were processed

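RNA was measured in rat pinealocytes with siBsx or siNT, 3 libraries each. Per the labels' protocols, libraries were made from 3.4 ng of total RNA (integrity numbers 7.7 to 8.9) with a stranded, rRNA-depleting kit, and all 9 libraries of the series shared one flow cell. The authors aligned to rn6 and used DESeq2 1.16.1, STAR 2.5.4a, bcl2fastq 2.20.0.422, Subread 1.5.2 and featureCounts, per the submitters' processing notes. Annotation and strand setting are not given in the sources used here.

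Mean normalised counts over the 6 libraries are the signal values the authors deposited. The deposited log2 values are the authors' fold changes and standard errors, the deposited score is the authors' Wald statistic, and the deposited p-values are theirs, unadjusted and adjusted. The deposited fold (ratio) and percent change restate the log2 value. The authors also deposited normalised counts per siNT library for 14 genes.

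Group means were computed from mean and fold, and for those 14 genes the computed siNT mean matched the mean of the libraries to 3 significant digits (ratio 1). No model was refitted. Depth of the siBsx libraries was not used here, and the precision of each gene is its SE. Adjustment was tested on simulated data. Python 3.11.15, pandas 2.3.3, numpy 2.4.6 and matplotlib 3.10.9 were used.

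The 98 gene lists were chosen with earlier results of these data known, and 2 name patterns that took a wrong gene were corrected after the values were seen. Genes named are Bsx, the 25 highest and 25 lowest by log2 fold change with an adjusted p under 0.05, a mean of at least 50 and a gene symbol, up to 4 members per list and direction by smallest p, any member of a list of up to 14, and up to 2 highest members of a list with no call. Other genes are named to complete a list and were chosen after their values were seen, and 15 genes are not reported here. Alternatives were a stricter threshold, a minimum fold, another filter on low means, centring, and entries with a gene symbol.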

Additional observations from a re-analysis of the deposited data

How the results depend on the processing

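No paired analysis was possible because values per siBsx library were not used here, and for the same reason no library could be left out in turn. At an adjusted p under 0.01, 751 genes were higher in place of 1129, and 1049 were lower in place of 1429. With at least 1.5-fold required, 221 were higher and 334 lower. Adjusting over all genes with no filter on low means, over genes with a mean of at least 100 or over entries with a gene symbol gave 962 to 1159 higher and 1281 to 1440 lower, and centring gave 1011 to 1127 higher and 1432 to 1536 lower. Centring moved all genes by 0.000197 or 0.0126. The fall of Bsx passed under every alternative, with a log2 fold change of -2.27 to -2.29. Only centring alters a log2 fold change, so only there could a direction change, and none of 537 named genes did. The 537 include genes that had not passed under the main setting. At an adjusted p under 0.01, 75 of the 537 no longer passed, with no filter on low means 32, and with at least 1.5-fold 312. These counts are therefore not shares of the called genes. Of 196 counts per list and direction, 48 moved by more than 1.5 times at the stricter threshold, 133 with the minimum fold and 1 to 18 elsewhere. At an adjusted p under 0.01, the higher non-clustered protocadherins numbered 6 and the lower calcium channel subunits 9, as before, and 16 sterol genes, 12 contractile genes and 8 collagens were lower. With at least 1.5-fold, 6 protocadherins, 5 immediate early genes, 4 calcium channel subunits, 3 sterol genes, 4 contractile genes, 4 collagens and 5 chaperones passed, fewer because the fold limit removes small changes. Low counts limit genes with a mean under 50, where 2.28% were called.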
